A study of Mus musculus with 9 samples.

Results

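Semaphorins, plexins, Slits, Robo receptors, Unc5 receptors and netrins are families of guidance genes, and 42 of them were examined here in sorted endothelial cells of the embryonic mouse heart. They were the rows of the deposited table whose Ensembl identifier carries 1 of 42 listed symbols, out of 41214 features in all. All 42 had a row, and 40 of them passed the filter for low counts and were tested. Sema5b and Slit1 did not pass it. Ventricles at E17.5 gave 3 sorted populations with 3 libraries each. The arterial population was coronary endothelium enriched for intramyocardial arteries and capillaries, sorted as CD31+, GFP+, endomucin-low and Tomato+. The venous population was coronary endothelium enriched for subepicardial veins, sorted as CD31+, GFP+ with low GFP, endomucin-low and Tomato-. Cells positive for CD45, Ter119 or DAPI were left out of all 3 sorts. The endocardial population, from the lining of the heart chambers, was sorted as CD31+ and GFP+, and its gate as written names neither endomucin nor Tomato. Taken literally, that gate would also admit the coronary cells, and whether further gating kept them out is not stated in the sources used here, so that each comparison with the endocardium is with this sorted population as labelled. All embryos carried R26 (tom/+), Nes-CreER (Tg/0) and Nes-Gfp (Tg/0) and were exposed to tamoxifen at E15.5, so that every group carries the same alleles and treatment. The Nes promoter drives both the GFP and the Cre recombinase, which limits each population to what these reporters and antibodies mark. The labels do not say whether replicates came from separate litters or pools. The p-values therefore cover the spread among these libraries, and part of that may be technical.

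These families were named for steering growing axons, and endothelial cells use many of the same ligands and receptors. Semaphorins are secreted or membrane-bound ligands whose main receptors are the plexins, with neuropilins as co-receptors for most of the secreted ones. Plexins act on small GTPases and mostly cause a cell process to retract. Slits are large secreted ligands of Robo receptors. Netrins are secreted proteins related to laminins, and Unc5 receptors, with Dcc and neogenin, bind netrin-1. In blood vessels Plxnd1, Robo4 and Unc5b are known for their roles in vessel patterning and in the barrier.

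Library totals were 12750553 to 19474419 expected counts. Levels are CPM (counts scaled to library size) at TMM library sizes. Levels of different genes are compared per kilobase of merged exon (CPM per kb), except where CPM is named. The highest gene of each role was taken by mean CPM, not per kb. Merged exons join those of all annotated transcripts, and which transcripts were present was not determined, so that comparisons per kb are approximate. Each log2 fold change is given ± its standard error (SE), and a gene is said to rise or fall, or to be called, at an edgeR adjusted p under 0.05 over all 17103 genes tested. Endocardial replicate 1 stood apart on the second principal component, at 139 against 1.8 and -16.2 for endocardial replicates 2 and 3, and had a count above 0 for 21101 genes against 17337 and 17130. The arterial libraries were also spread on that component, at 36.2, -49.8 and 55 for replicates 1, 2 and 3. Arterial replicate 1 had a count above 0 for 21221 genes. The endocardial and the arterial markers were each highest in the population they name. The 8 endocardial markers summed to 97.9 to 116 CPM in the arterial libraries, 309 to 514 CPM in the venous ones and 3907 to 4671 CPM in the endocardial ones, and the 9 arterial markers to 822 to 1033 CPM in the arterial libraries, 365 to 422 CPM in the venous ones and 421 to 476 CPM in the endocardial ones. The 5 venous markers summed to 478 to 539 CPM in the arterial libraries, 727 to 917 CPM in the venous ones and 1000.5 to 1715 CPM in the endocardial ones, so that they were highest in the endocardium. In venous against endocardial libraries 1 of the 5 rose and 3 fell, where 5.81% of all genes rose and 4.44% fell. That list includes Emcn, the gene of endomucin, and both coronary sorts took endomucin-low cells. The part of the gates in this order was not tested. Fibroblast markers also differed between the populations, with sums over 10 genes of 102 to 119 CPM in the arterial libraries, 1415 to 1650.3 CPM in the venous ones and 1615 to 1959 CPM in the endocardial ones, and so did mural cell markers, with sums over 8 genes of 495 to 792 CPM in the arterial libraries, 225 to 336 CPM in the venous ones and 78.6 to 144 CPM in the endocardial ones. None of these markers was at 0 in every library, but Dpep1, a fibroblast marker, was at 0 in the arterial libraries. The highest level of a single fibroblast marker in a library was 1140 CPM, so that 1 gene made up much of that sum. In bulk libraries, fewer cells of a type and less RNA per cell cannot be told apart.

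The sequences just before the starts of Unc5b, Plxnc1, Ntn4 and Sema3a are shown because these genes differed between arterial and venous libraries and their windows hold no exon base of the gene in the annotation. Each is the 250 bases before a RefSeq start (GRCm38.p6), written 5′ to 3′ on the strand of the gene. The windows of Ntn4 and Sema3a lie inside the span of the gene in GENCODE, between exons, since other transcripts start further upstream. The remaining such gene, Unc5c, had a window that is all annotated exon. Capitals mark matches, on either strand, to 5 short motifs of factors known in endothelium. The Rbpj motif searched for was TGGGAA. For Ets factors it was AGGAAG. For Gata factors the motif was GATAA. Sox factors were searched for as ACAAT. The half-site of nuclear receptors such as Nr2f2 was taken as AGGTCA.
Unc5b, chr10:60831582-60831831 (minus strand): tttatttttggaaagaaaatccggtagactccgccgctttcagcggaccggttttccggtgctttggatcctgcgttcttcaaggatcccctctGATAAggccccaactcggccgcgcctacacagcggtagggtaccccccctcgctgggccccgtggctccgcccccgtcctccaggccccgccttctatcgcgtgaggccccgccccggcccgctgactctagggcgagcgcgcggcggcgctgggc
Plxnc1, chr10:94944846-94945095 (minus strand): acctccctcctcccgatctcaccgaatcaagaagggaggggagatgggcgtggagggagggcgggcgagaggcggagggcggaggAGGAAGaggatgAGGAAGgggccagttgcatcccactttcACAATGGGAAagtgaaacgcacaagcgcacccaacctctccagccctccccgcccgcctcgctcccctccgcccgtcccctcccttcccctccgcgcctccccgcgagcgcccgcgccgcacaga
Ntn4, chr10:93640799-93641048 (plus strand): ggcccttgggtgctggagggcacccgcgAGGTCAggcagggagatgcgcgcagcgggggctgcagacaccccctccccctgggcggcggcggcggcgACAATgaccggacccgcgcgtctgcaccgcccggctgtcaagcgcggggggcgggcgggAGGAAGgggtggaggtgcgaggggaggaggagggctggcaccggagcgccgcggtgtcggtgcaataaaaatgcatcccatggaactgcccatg
Sema3a, chr5:13396534-13396783 (plus strand): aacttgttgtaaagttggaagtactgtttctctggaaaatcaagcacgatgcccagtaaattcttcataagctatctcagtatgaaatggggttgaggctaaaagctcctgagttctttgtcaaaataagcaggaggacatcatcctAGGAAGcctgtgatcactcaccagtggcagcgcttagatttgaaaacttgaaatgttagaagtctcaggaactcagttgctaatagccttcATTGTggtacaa
The window of Unc5b, the member that rose in arterial over venous libraries, held 1 GATAA match, while those of the 3 members that fell held ACAAT and AGGAAG matches. Plxnc1 also held a TGGGAA match, which shares 1 base with its ACAAT match, and Ntn4 an AGGTCA match. Of all 32851 windows of that length in the RefSeq table, 21.6% held TGGGAA, 29.5% AGGAAG, 22.6% GATAA, 27.7% ACAAT and 14% AGGTCA, so that such matches are common. Windows were found for 34 of the 42 members. A match is a description of letters and not a binding site.

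Guidance genes differed between the 3 populations in both directions. Arterial libraries had more Unc5b than venous ones and less Plxnc1, Ntn4, Unc5c and Sema3a. Both coronary populations had more Sema7a, Sema6d, Unc5b, Robo1 and Robo4 than the endocardium, and less Plxnc1, Slit3, Ntn4, Sema3a, Plxna4 and Sema4d. Between arterial and venous libraries 1 member rose and 4 fell, 12.5% of the 40 tested, where 1.07% of all genes tested were called (0.310% higher and 0.760% lower). For the coronary populations against the endocardium, with the arterial and venous log means averaged, 8 rose and 11 fell, 47.5% where 13.9% of all genes were called (7% higher and 6.91% lower). For arterial against endocardial libraries 6 rose and 11 fell, 42.5% where 11.7% of all genes were called (5.92% higher and 5.75% lower). For venous against endocardial libraries 6 rose and 6 fell, 30% where 10.2% of all genes were called (5.81% higher and 4.44% lower). At least 1 of the 4 comparisons called 20 of the 40 members, and 15.3% of all genes. These comparisons share libraries, so that their counts are not independent. The members were chosen with earlier results of these data known, so that the shares are descriptive and no test of the families. In the list as a whole, the median log2 fold change for coronary against endocardial libraries was -0.60, and -0.08 over all genes. For arterial against venous libraries it was 0.04, and 0.03 over all genes.

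**Figure D1:**
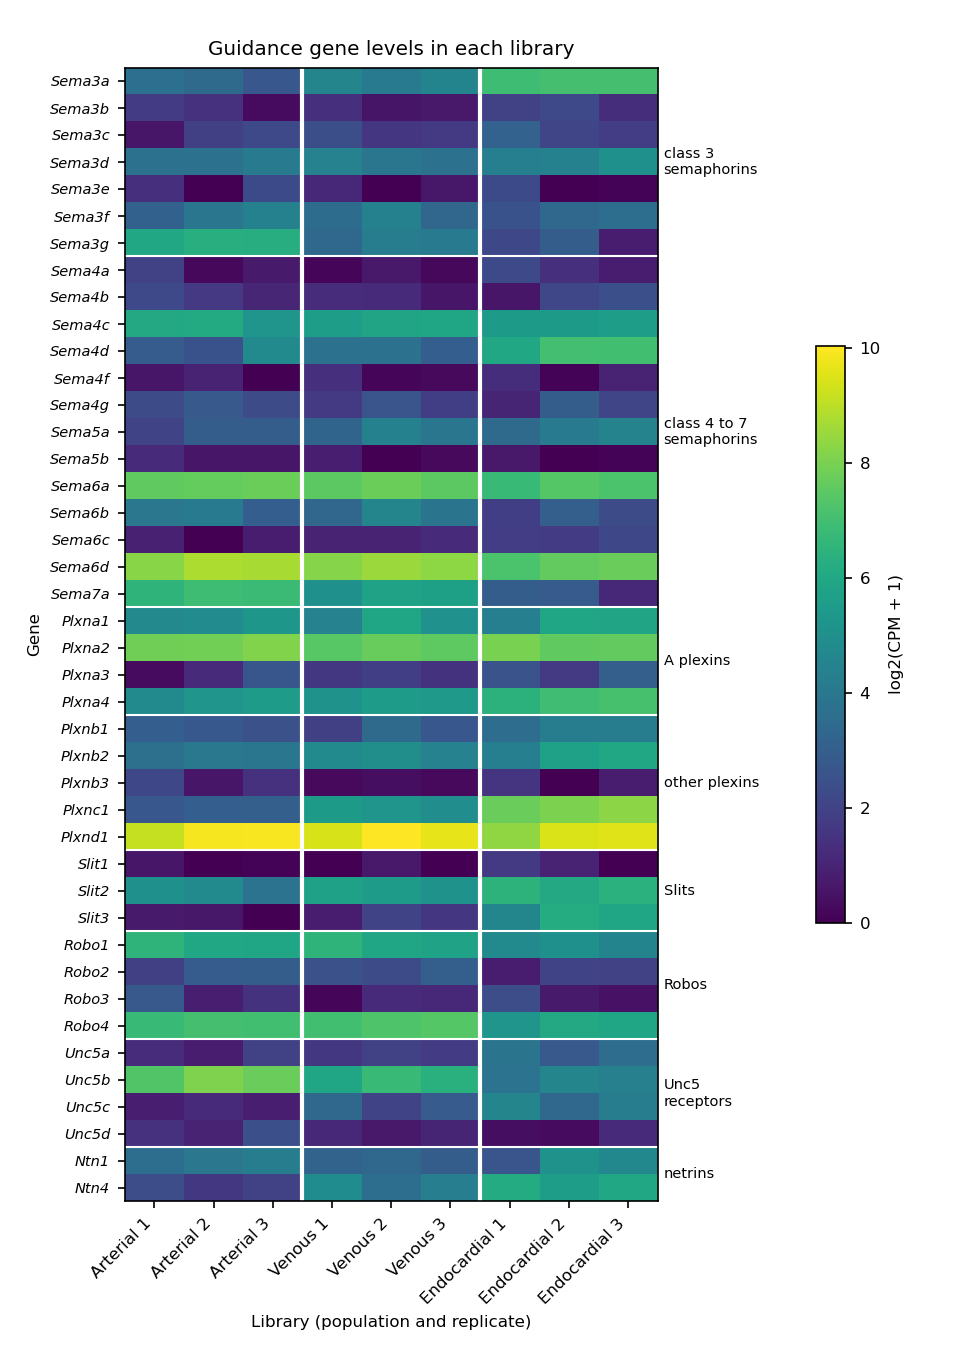
Heat map of the 42 guidance genes (rows, grouped by family) in the 9 libraries (columns, by population and replicate). Colour is log2(CPM + 1). Plxnd1 is the brightest row, and Plxnc1, Sema3a and Ntn4 brighten towards the endocardial columns, while Sema7a, Sema3g and Unc5b darken.

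Every called member went in the direction of its fold change within each of the 3 batches, which the labels number like the replicates. Libraries of the groups did not overlap for 15 of the 40 tested members in the comparison of arterial with venous libraries, where 17.3% of all genes did not overlap, and for 17 members in that of coronary with endocardial libraries, where the share was 17.6%. It was 21 members against 25.6% of all genes for arterial with endocardial, and 20 members against 28.2% for venous with endocardial libraries. Without endocardial replicate 1, 5 members were called between arterial and venous libraries, 17 between coronary and endocardial, 17 between arterial and endocardial and 13 between venous and endocardial libraries. The count of 5 was 2 without arterial replicate 3 or venous replicate 1 and 3 without venous replicate 3. It was 9 when low counts were not filtered.

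**Figure D2:**
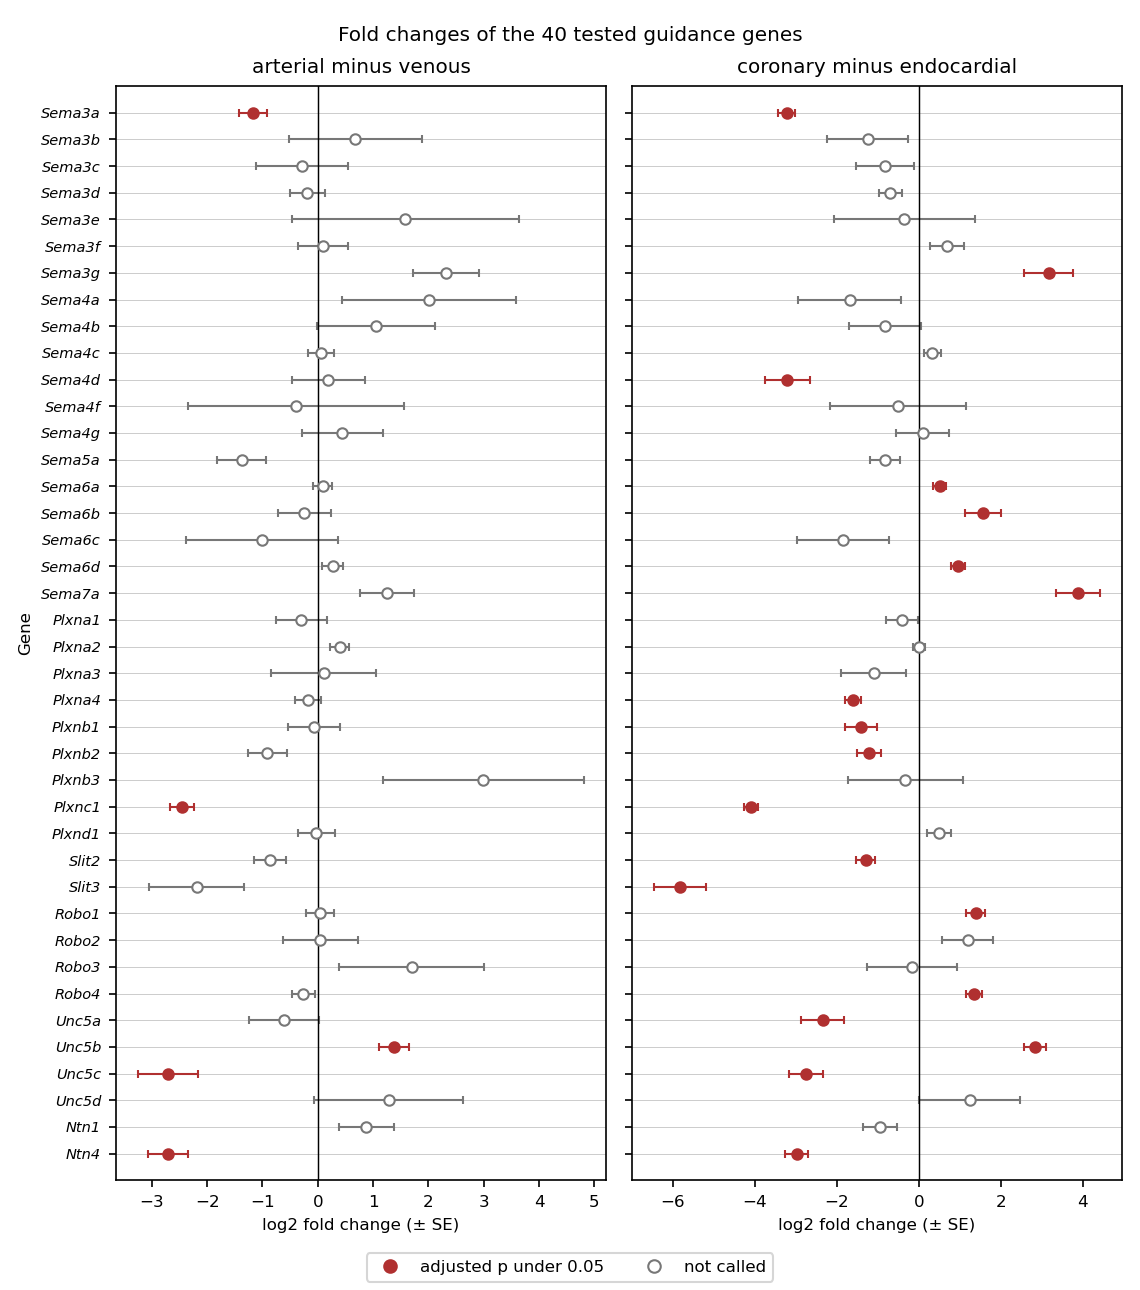
Log2 fold changes with SE (horizontal bars) of the 40 tested guidance genes, for arterial minus venous on the left and coronary minus endocardial on the right. Filled red points passed an adjusted p of 0.05. Plxnc1 (-2.46 and -4.10) and Unc5b (1.38 and 2.84) passed in both panels, in opposite directions.

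Among the secreted class 3 semaphorins, Sema3a fell and Sema3g rose in arterial against endocardial libraries. Sema3a (chromosome 5, 13125414 to 13602565, plus strand, GRCm38) encodes a repulsive ligand that signals through neuropilin-1 and A plexins. It had 11.6, 10.1 and 5.59 CPM in arterial libraries, 22.8, 16.4 and 22.02 CPM in venous libraries and 118, 132 and 133 CPM in endocardial libraries. Every arterial library lay below every venous one, and those below every endocardial one. The log2 fold change was -1.16 ± 0.25, adjusted p = 0.0334 for arterial minus venous and -3.23 ± 0.21, adjusted p = 1.2e-08 for coronary minus endocardial libraries. The first of these calls ended when arterial replicate 3, or venous replicate 1 or 3 was left out (adjusted p = 0.102 to 0.122), and also when only the arterial and venous libraries were fitted (adjusted p = 0.152).

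Sema3g (chromosome 14, 31217860 to 31230352, plus strand) encodes a ligand for neuropilin-2 that is known from arterial endothelium. Its level was 64.1, 79.4 and 75.6 CPM in the arterial, 9.46, 17.47 and 16.998 CPM in the venous and 3.51, 6.702 and 0.679 CPM in the endocardial libraries. The 3 arterial libraries were all at least 64.1 CPM, and no venous library passed 17.47 CPM. Sema3g was 20.1-fold higher in arterial than in endocardial libraries (log2 fold change 4.33 ± 0.66, adjusted p = 0.00212) and rose for coronary over endocardial libraries as well (3.17 ± 0.60, adjusted p = 0.00633). That second call ended when endocardial replicate 1 was left out (adjusted p = 0.0566). Between venous and endocardial libraries Sema3g was not called. That difference passed with DESeq2 (adjusted p = 0.00177), with no filter on low counts (3.6e-06) and when endocardial replicate 2 or 3 was left out (adjusted p = 0.00918 to 0.0102). For arterial minus venous, the value of 2.32 ± 0.59, adjusted p = 0.185 missed the threshold. It passed with DESeq2 (adjusted p = 0.000435), when only the arterial and venous libraries were fitted (0.000687), with no filter on low counts (5.98e-07) and when endocardial replicate 2 or 3 was left out (adjusted p = 0.000321 to 0.0405). Sema3d, at 12.3 to 31.8 CPM over the 9 libraries, and Sema3f, at 4.81 to 20.3 CPM, were the most abundant of the other class 3 semaphorins, in mean CPM and per kb. Sema3b, Sema3c and Sema3e, the last a ligand of Plxnd1, stayed under 10 CPM in every library.

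In the membrane-bound classes, Sema7a and Sema6d were higher in the coronary populations and Sema4d in the endocardium. Sema7a (chromosome 9, 57940112 to 57962865, plus strand) encodes a semaphorin held in the membrane by a GPI anchor, which binds Plxnc1 and integrins. It stood at 90.9, 121 and 113 CPM in arterial libraries, 32.2, 53.6 and 50.3 CPM in venous libraries and 6.72, 6.34 and 1.15 CPM in endocardial libraries. The groups did not overlap, with venous libraries between the other two populations. Coronary libraries were 14.8-fold above the endocardium (log2 fold change 3.89 ± 0.53, adjusted p = 0.000996). The difference of arterial from venous libraries was not called (1.26 ± 0.49, adjusted p = 0.518). It passed when endocardial replicate 3 was left out (adjusted p = 0.00829) and when only these 2 populations were fitted (adjusted p = 0.0145) or low counts were kept (0.00733).

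Sema4d (chromosome 13, 51685529 to 51793747, minus strand) encodes CD100, a ligand of Plxnb1. Its level was 6.49, 4.72 and 25.8 CPM in the arterial, 12.8, 12.5 and 7.01 CPM in the venous and 63.6, 129 and 127 CPM in the endocardial libraries, so that the lowest endocardial library was above every coronary one. The log2 fold change was -3.21 ± 0.55, adjusted p = 0.00663 for coronary minus endocardial, -3.12 ± 0.70, adjusted p = 0.0282 for arterial minus endocardial and -3.31 ± 0.71, adjusted p = 0.0256 for venous minus endocardial libraries. With the replicate number as a block, the last 2 calls ended (adjusted p = 0.0711 for arterial and 0.0797 for venous), as they did with low counts kept (0.0739 for arterial and 0.0629 for venous). The arterial call also ended when only the compared libraries were fitted (0.0794) and when arterial replicate 1 or 2, or venous replicate 1, 2 or 3, or endocardial replicate 2 or 3 was left out (adjusted p = 0.0578 to 0.123), and the venous one when venous replicate 1, 2 or 3, or endocardial replicate 2 or 3 was left out (adjusted p = 0.0767 to 0.157). Sema4d is also a leukocyte gene, and the 6 leukocyte markers summed to 13.02 to 16.4 CPM in the arterial libraries, 6.98 to 7.34 CPM in the venous ones and 6.38 to 10.5 CPM in the endocardial ones. Ptprc, which encodes the CD45 antigen sorted against, was at 2.06, 0.216 and 0.0679 CPM in the endocardial libraries. The part of leukocytes in the Sema4d levels was not tested.

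**Figure D3:**
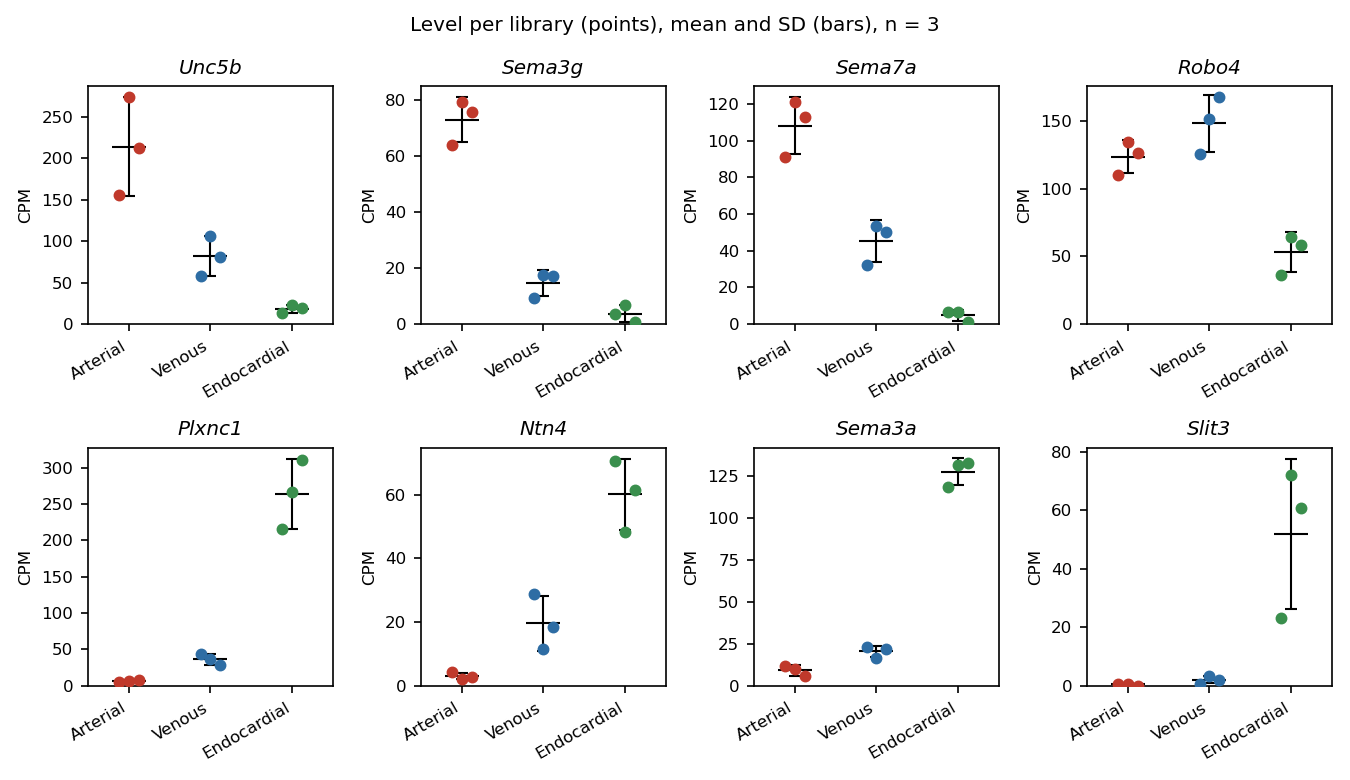
CPM in each library (points, coloured by population) with the mean and SD over 3 libraries (black bars) for 8 guidance genes. The upper row is highest in coronary libraries, such as Sema7a at 90.9 to 121 CPM in arterial against 1.15 to 6.72 CPM in endocardial libraries. The lower row is highest in the endocardium.

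Class 6 semaphorins are transmembrane ligands of A plexins, and Sema6d and Sema6a, of this class, were abundant in all populations and higher in the coronary ones. Sema6d (chromosome 2, 124089969 to 124667770, plus strand), a ligand of Plxna1, had 304, 448 and 424 CPM in arterial libraries, 297, 365 and 315 CPM in venous libraries and 146, 197 and 211 CPM in endocardial libraries. The coronary libraries all lay above the endocardial ones, 1.93-fold on average (log2 fold change 0.95 ± 0.17, adjusted p = 0.000731). Sema6a, a ligand of Plxna2 and Plxna4, differed less, with 193, 201 and 219.7 CPM in the arterial, 179.7, 216 and 182 CPM in the venous and 109.9, 166 and 143 CPM in the endocardial libraries (log2 fold change 0.51 ± 0.16, adjusted p = 0.0373). That call ended when arterial replicate 2 or 3, or venous replicate 1, 2 or 3, or endocardial replicate 1 or 3 was left out (adjusted p = 0.0516 to 0.156). For arterial minus endocardial libraries Sema6a passed only with other settings, such as the replicate block (adjusted p = 0.0219, against 0.0538 without it), or when endocardial replicate 2 was left out (adjusted p = 0.0444).

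Sema6b (chromosome 17, 56123085 to 56140343, minus strand), a further ligand of Plxna4, was measured at 14.7, 16.1 and 6.99 CPM in arterial libraries, 8.93, 22.4 and 13.3 CPM in venous libraries and 2.597, 7.28 and 3.94 CPM in endocardial libraries. Arterial and endocardial libraries overlapped. Its rise for coronary over endocardial libraries (1.57 ± 0.45, adjusted p = 0.0254) ended when arterial replicate 2, or venous replicate 2, or endocardial replicate 1 or 3 was left out (adjusted p = 0.0555 to 0.0889). The rise of venous over endocardial libraries (1.69 ± 0.49, adjusted p = 0.037) ended when venous replicate 2 or 3, or endocardial replicate 1 or 3 was left out (adjusted p = 0.0709 to 0.226). For arterial minus endocardial libraries the adjusted p was 0.0701, and 0.0252 with the replicate block. It also passed when arterial replicate 3, or endocardial replicate 2 was left out (adjusted p = 0.0305 to 0.0377). Sema5a (chromosome 15, 32244810 to 32696341, plus strand), whose protein carries thrombospondin repeats, had 3.17, 6.68 and 6.77 CPM in the arterial, 8.46, 20.4 and 14.4 CPM in the venous and 10.01, 16.3 and 21.3 CPM in the endocardial libraries. It fell in arterial against endocardial libraries (-1.52 ± 0.44, adjusted p = 0.0342), a call that ended when only the libraries compared were fitted (adjusted p = 0.0668) and when arterial replicate 1, 2 or 3, or endocardial replicate 2 or 3 was left out (adjusted p = 0.0529 to 0.149). Sema4c, a ligand of Plxnb2, stood at 37.0 to 69.1 CPM over all libraries, and Sema4a, Sema4b, Sema4f, Sema4g, Sema5b and Sema6c stayed under 10 CPM.

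Of the 9 plexins 4 fell in coronary against endocardial libraries, where 6.91% of all genes fell. Plxnc1 (chromosome 10, 94790866 to 94944835, minus strand), the receptor of Sema7a, had the smallest p of all members in each of the 4 comparisons. It stood at 5.53, 6.91 and 7.28 CPM in arterial libraries, 43.5, 36.1 and 28.8 CPM in venous libraries and 215, 267 and 311 CPM in endocardial libraries. The 3 groups were fully separate, in the order arterial, venous, endocardial. Arterial libraries were 5.49-fold below venous ones (log2 fold change -2.46 ± 0.22, adjusted p = 8.34e-06), and coronary libraries 17.1-fold below endocardial ones (-4.10 ± 0.18, adjusted p = 1.53e-10). Its calls held in each of the 9 fits that left out 1 library. Plxnc1 is also known from leukocytes, and the part of leukocytes in its levels was not tested.

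Plxna4 (chromosome 6, 32144268 to 32588192, minus strand), an A plexin that binds Sema6a and Sema6b and pairs with neuropilin-1 for Sema3a, was measured at 26.2, 36.6 and 43.9 CPM in the arterial, 34.4, 45.2 and 41.5 CPM in the venous and 84.9, 124 and 137 CPM in the endocardial libraries. Every coronary library lay below every endocardial one (log2 fold change -1.61 ± 0.19, adjusted p = 1.78e-05). Plxna2 (chromosome 1, 194618218 to 194816869, plus strand), the most abundant A plexin per kb, had 228, 235 and 277 CPM in arterial libraries, 170.1, 206 and 186 CPM in venous libraries and 258, 191 and 197 CPM in endocardial libraries. Arterial libraries lay above venous ones and the endocardial libraries overlapped both, and no difference was called (adjusted p = 0.53 for arterial minus venous and 0.996 for coronary minus endocardial). The B plexins are receptors of class 4 semaphorins. Plxnb1 (chromosome 9, 109095389 to 109119917, plus strand) stood at 7.002, 5.82 and 4.56 CPM in the arterial, 2.72, 9.94 and 5.58 CPM in the venous and 11.001, 18.1 and 18.2 CPM in the endocardial libraries and fell in coronary libraries (-1.41 ± 0.39, adjusted p = 0.0224), a call that ended when venous replicate 3, or endocardial replicate 2 or 3 was left out (adjusted p = 0.051 to 0.111). Plxnb2 (chromosome 15, 89155549 to 89180788, minus strand) had 11.9, 15.03 and 14.4 CPM in arterial libraries, 26.9, 30.2 and 20.99 CPM in venous libraries and 18.9, 52.7 and 61.1 CPM in endocardial libraries. Its endocardial replicate 1 lay below the venous libraries and above the arterial ones, and the other 2 endocardial libraries were above all coronary ones. Plxnb2 fell in coronary against endocardial libraries (-1.22 ± 0.29, adjusted p = 0.00811), and this call ended when endocardial replicate 2 or 3 was left out (adjusted p = 0.0619 to 0.086). Between venous and endocardial libraries Plxnb2 was not called, and passed when endocardial replicate 1 was left out (adjusted p = 0.00818). Plxnb1 was not called for arterial or venous libraries alone against endocardial ones, and passed only under some other settings.

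Plxnd1 (chromosome 6, 115954811 to 115995005, minus strand), the receptor of Sema3e and the plexin best known from endothelium, was the most abundant member per kb in every population. It was measured at 564, 949 and 971 CPM in the arterial, 683, 1042 and 801 CPM in the venous and 331, 701 and 747 CPM in the endocardial libraries, which is 113, 115 and 81.2 CPM per kb on average. All groups overlapped. Plxnd1 was not called for coronary minus endocardial libraries (0.49 ± 0.29, adjusted p = 0.356). It passed with the replicate block (adjusted p = 0.0103 for coronary, 0.0355 for arterial and 0.0217 for venous minus endocardial). In each population replicate 1 had its lowest Plxnd1 level. Plxna1, at 19.0 to 59.0 CPM, Plxna3, at 0.221 to 7.13 CPM, and Plxnb3, at 0 to 3.46 CPM, did not pass the test.

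Per kb, the plexin that came after Plxnd1 differed between the populations. In arterial libraries it was Plxna2, at 14.3 CPM per kb against 0.787 for Plxnc1. Venous libraries gave 10.9 CPM per kb for Plxna2 and 4.33 for Plxnc1. In the endocardium Plxnc1 came second, at 31.7 CPM per kb against 12.5 for Plxna2. Its ligand Sema7a ran the other way, at 32.8 CPM per kb in arterial, 13.8 CPM per kb in venous and 1.44 CPM per kb in endocardial libraries.

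**Figure D4:**
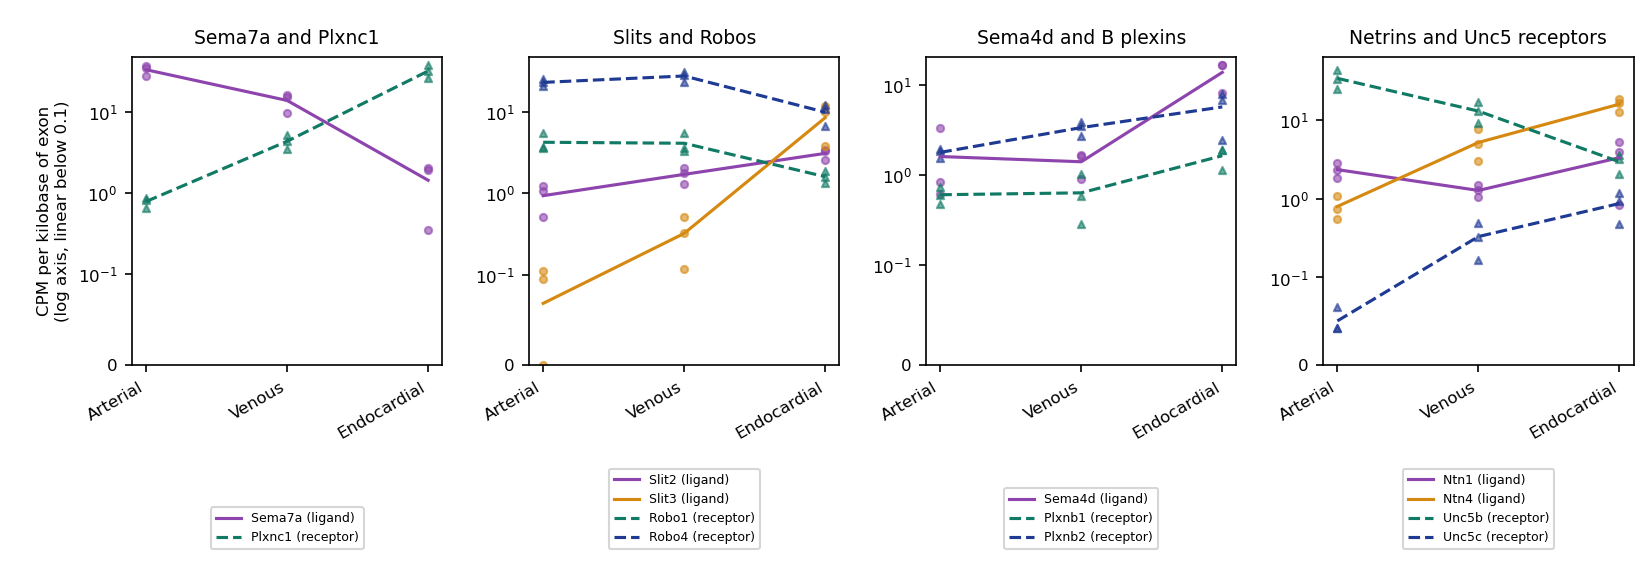
Ligands (solid lines, circles) and receptors (dashed lines, triangles) of 4 guidance systems, in CPM per kb of merged exon on a log axis that is linear below 0.1. Points are libraries and lines join population means. Sema7a and Plxnc1 cross between the arterial and endocardial populations, at 32.8 and 0.787 CPM per kb in arterial against 1.44 and 31.7 in endocardial libraries.

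Slit2 and Slit3 were higher in the endocardium, and Robo1 and Robo4 in the coronary populations. Slit3 (chromosome 11, 35121224 to 35708507, plus strand) was nearly absent from coronary libraries, at 0.663, 0.576 and 0 CPM in arterial libraries, 0.71, 3.15 and 1.997 CPM in venous libraries and 23.1, 72.1 and 60.7 CPM in endocardial libraries. Its counts were 9, 10 and 0 in arterial, 12, 51 and 39 in venous and 302, 1001 and 894 in endocardial libraries. The log2 fold change of coronary minus endocardial libraries was -5.83 ± 0.64, adjusted p = 0.000195, a fitted value that rests on few arterial counts. The fall in venous against endocardial libraries (-4.73 ± 0.79, adjusted p = 0.00425) ended when venous replicate 3 was left out (adjusted p = 0.0611). Slit2 (chromosome 5, 47983138 to 48307733, plus strand), the other Slit above the filter, was measured at 31.7, 26.9 and 12.9 CPM in the arterial, 52.3, 44.95 and 33.6 CPM in the venous and 88.2, 65.6 and 83.7 CPM in the endocardial libraries. Arterial libraries lay below venous ones and these below endocardial ones. The fall in coronary libraries was called (-1.29 ± 0.24, adjusted p = 0.00113). Between venous and endocardial libraries it was not (adjusted p = 0.0729). It passed there with the replicate block (0.0173), with DESeq2 (0.0393), with low counts kept (0.0115) and when only the compared libraries were fitted (0.0239). The same held when arterial replicate 1 or 3 was left out (adjusted p = 0.0205 to 0.0448). Between arterial and venous libraries neither Slit2 nor Slit3 was called. Both passed there with low counts kept (adjusted p = 0.019 for Slit2 and 0.00144 for Slit3). Slit1, which was not tested, had at most 2.22 CPM.

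Robo4 (chromosome 9, 37401897 to 37415115, plus strand), the Robo of endothelium, had 109.96, 134 and 126 CPM in arterial libraries, 126, 151 and 167 CPM in venous libraries and 36.2, 64.5 and 58.4 CPM in endocardial libraries. Robo1 (chromosome 16, 72308306 to 73046095, plus strand), a receptor of Slits in neurons and in endothelium, had 90.7, 61.1 and 59.4 CPM in the arterial, 91.6, 59.4 and 54.2 CPM in the venous and 25.97, 31.5 and 22.1 CPM in the endocardial libraries. For both genes every coronary library was above every endocardial one and the arterial and venous libraries overlapped. Coronary libraries were 2.55-fold higher for Robo4 (log2 fold change 1.35 ± 0.20, adjusted p = 0.00011) and 2.62-fold higher for Robo1 (1.39 ± 0.23, adjusted p = 0.000391). Per kb, Robo4 was above Robo1 in each population, at 23.3 against 4.26 CPM per kb in arterial, 27.9 against 4.14 in venous and 10.001 against 1.61 in endocardial libraries. Robo2 and Robo3 stayed under 10 CPM in every library.

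Members of the Unc5 family went in opposite directions. Unc5b (chromosome 10, 60762593 to 60831581, minus strand), the receptor of this family known from arteries and sprouting vessels, which binds netrin-1 and Robo4, had 155, 274 and 213 CPM in arterial libraries, 58.3, 106 and 81.4 CPM in venous libraries and 12.99, 22.8 and 19.9 CPM in endocardial libraries. The 3 groups were separate, in the order arterial, venous, endocardial from high to low. Arterial libraries were 2.61-fold above venous ones (log2 fold change 1.38 ± 0.27, adjusted p = 0.021) and coronary libraries 7.14-fold above endocardial ones (2.84 ± 0.27, adjusted p = 3.42e-06). The first call ended when arterial replicate 2 or 3, or venous replicate 1 or 3 was left out (adjusted p = 0.0702 to 0.141). Within batches 1, 2 and 3 the difference of arterial from venous libraries was 1.40, 1.36 and 1.37 in log2(CPM + 1).

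Unc5c (chromosome 3, 141465216 to 141834924, plus strand) was a low-level receptor, measured at 0.811, 1.27 and 0.809 CPM in the arterial, 9.52, 3.21 and 6.298 CPM in the venous and 22.9, 9.22 and 18.1 CPM in the endocardial libraries. It fell in arterial against venous libraries (-2.70 ± 0.55, adjusted p = 0.02) and in coronary against endocardial ones (-2.75 ± 0.42, adjusted p = 0.000191), with venous replicate 1 inside the endocardial range. The first call ended when arterial replicate 1 or 3, or venous replicate 1 was left out (adjusted p = 0.0522 to 0.113) and when only the arterial and venous libraries were fitted (adjusted p = 0.077). Between venous and endocardial libraries Unc5c was not called, with all libraries or with 1 left out. Unc5a (chromosome 13, 54949411 to 55006018, plus strand) had 1.4003, 0.691 and 2.79 CPM in arterial libraries, 2.07, 2.96 and 2.41 CPM in venous libraries and 13.7, 5.91 and 11.1 CPM in endocardial libraries. Its fall was called in coronary against endocardial libraries (-2.35 ± 0.52, adjusted p = 0.00484) and in arterial against endocardial libraries (-2.65 ± 0.67, adjusted p = 0.0135), where it ended when arterial replicate 2, or endocardial replicate 1 was left out (adjusted p = 0.0579 to 0.0665). Venous and endocardial libraries did not overlap for Unc5a, but their difference was not called. It passed with DESeq2 (adjusted p = 0.0155), when only the compared libraries were fitted (0.0224) and when arterial replicate 3 was left out (0.0427). Unc5d stayed under 5 CPM. Per kb, Unc5b stood at 34.2, 13.1 and 2.96 CPM in arterial, venous and endocardial libraries, and above the other 3 receptors of the family in each.

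Netrin-4, which binds laminins and is a part of basement membranes, was the netrin that differed. Its gene Ntn4 (chromosome 10, 93640681 to 93747207, plus strand) was measured at 4.13, 2.07 and 2.79 CPM in arterial libraries, 28.7, 11.4 and 18.5 CPM in venous libraries and 70.7, 48.3 and 61.4 CPM in endocardial libraries. The populations did not overlap. Arterial libraries were 6.54-fold below venous ones (log2 fold change -2.71 ± 0.36, adjusted p = 0.000628), and coronary libraries 7.86-fold below endocardial ones (-2.97 ± 0.28, adjusted p = 1.05e-06). These calls held in each fit that left out 1 library. Ntn1, the classic ligand of Unc5 receptors, is given by library because it changed with 1 library, and was picked after its values were seen. It had 11.4, 14.7 and 18.2 CPM in the arterial, 8.104, 9.32 and 6.71 CPM in the venous and 5.27, 33.3 and 24.5 CPM in the endocardial libraries and did not pass the test. Its endocardial replicate 1, at 5.27 CPM, was below every coronary library, while the other 2 endocardial libraries were above them all. When that library was left out, Ntn1 fell in coronary against endocardial libraries (adjusted p = 0.0022) and in venous against endocardial libraries (adjusted p = 0.00119). With all 9 libraries and low counts kept it also passed (adjusted p = 0.0496 for coronary and 0.0106 for venous minus endocardial libraries).

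Of the 42 members, 20 were neither called nor the highest of their role in mean CPM, and 18 of these were tested. By edgeR 0 of the 18 were called in any of the 4 comparisons, and likewise by DESeq2. At an unadjusted p under 0.05 there were 0 for arterial minus venous, 2 for coronary minus endocardial, 1 for arterial minus endocardial and 1 for venous minus endocardial libraries. Of the 20, 15 were under 10 CPM in every library, at 7.87 CPM or less. Exons of 8 members share bases with another annotated gene, and the sources used here do not say whether counting used strand, so that reads of the 2 genes may be mixed. This touches Plxna4, Plxnb1, Plxnc1, Unc5a and Unc5c among the called members, with at most 2.68% of their exon bases shared. Gm15688, which shares 118 bases with Unc5c, reached 5.44 CPM.

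The 4 members that fell in arterial against venous libraries moved with the venous, endocardial, fibroblast, lymphatic, cardiomyocyte, and neural and Schwann cell markers. The part of these markers in the results was not tested. In the same comparison 2 of the 5 venous, 5 of the 8 endocardial and 6 of the 10 fibroblast markers fell, where 0.760% of all genes fell. The sums of the venous list, given above, rose from arterial to venous to endocardial libraries. Lymphatic markers, a list of 5, ran in the same order, with sums of 78.1 to 109 CPM in the arterial libraries, 118 to 198 CPM in the venous ones and 552 to 649 CPM in the endocardial ones, and 1 of them fell. The 8 cardiomyocyte markers had sums of 261 to 371 CPM in the arterial libraries, 390.4 to 543 CPM in the venous ones and 488 to 582 CPM in the endocardial ones, where venous and endocardial libraries overlapped, and 1 of them fell in arterial against venous libraries. The 9 pan-endothelial markers summed to 5244 to 7252 CPM in the arterial libraries, 5001 to 6492 CPM in the venous ones and 3456 to 4553 CPM in the endocardial ones. Between venous and endocardial libraries, 5 genes of the endocardial list were lower in venous ones, and of the fibroblast list 3 were higher and 3 lower. Unc5b rose in arterial against venous libraries, as did 7 of the 9 arterial and 1 of the 8 mural markers, where 0.310% of all genes rose. The sums of the arterial list, given above, were highest in arterial libraries and overlapped between venous and endocardial ones. The mural sums fell from arterial to venous to endocardial libraries, the order of Unc5b. Most of the mural sum was Abcc9 and Rgs5, and Acta2, Cspg4 and Notch3 stayed under 10 CPM on average in each population. The part of these markers in the Unc5b result was not tested. Epicardial markers, a list of 6, summed to 182 to 208 CPM in the arterial libraries, 154 to 174 CPM in the venous ones and 24.4 to 32.4 CPM in the endocardial ones, most of it Wt1. The 8 neural and Schwann cell markers summed to 12.1 to 18.1 CPM in the arterial libraries, 17.04 to 25.1 CPM in the venous ones and 42.6 to 56.3 CPM in the endocardial ones. Their arterial and venous sums overlapped, and 1 of these markers fell in arterial against venous libraries.

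Genes that work with these families were drawn from a list of 54 partners, of which 53 had a row and 51 were tested. This list too was chosen with earlier results of these data known, so that its shares are descriptive. Between arterial and venous libraries only 1 of them was called, Flrt2, which fell, where 1.07% of all genes were called. For coronary against endocardial libraries 12 rose and 8 fell, 39.2% where 13.9% of all genes were called. Arterial against endocardial libraries gave 11 higher and 8 lower partners, 37.3% where 11.7% of all genes were called. Venous against endocardial libraries gave 9 higher and 6 lower, 29.4% where 10.2% of all genes were called. Flrt2 encodes a membrane protein that binds Unc5 receptors. It had 55.3, 24.9 and 45.7 CPM in arterial libraries, 136, 88.7 and 107 CPM in venous libraries and 362, 362 and 376 CPM in endocardial libraries. The groups were separate and in the reverse order of Unc5b, with log2 fold changes of -1.40 ± 0.25, adjusted p = 0.0101 for arterial minus venous and -2.43 ± 0.20, adjusted p = 6.82e-07 for coronary minus endocardial libraries. Dapk1, a death-associated kinase that acts below Unc5b, was measured at 15.8, 11.5 and 8.09 CPM in the arterial, 28.3, 15.8 and 19.6 CPM in the venous and 115, 149.8 and 146 CPM in the endocardial libraries and fell in coronary libraries (-3.11 ± 0.22, adjusted p = 3.8e-08).

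Co-receptors were also unequal between the populations. Nrp2, the neuropilin that binds Sema3g and Sema3f, had 385, 459.6 and 430.03 CPM in arterial libraries, 493, 558 and 577 CPM in venous libraries and 166, 222 and 217 CPM in endocardial libraries and rose in coronary against endocardial libraries (1.25 ± 0.15, adjusted p = 1.07e-05). Nrp1, the neuropilin of Sema3a, ran at 1783 ± 47.5 CPM in arterial, 1465 ± 178 CPM in venous and 1253 ± 84.9 CPM in endocardial libraries (SD, n = 3 each). It rose in arterial against endocardial libraries (0.51 ± 0.14, adjusted p = 0.0207), a call that ended when arterial replicate 2 or 3, or endocardial replicate 1 or 2 was left out (adjusted p = 0.0542 to 0.126). It missed the threshold for coronary minus endocardial libraries (0.37 ± 0.12, adjusted p = 0.0524) and passed it with the replicate block (adjusted p = 0.0243), with DESeq2 (0.0246), with low counts kept (0.0396) and when arterial replicate 1, or venous replicate 1 was left out (adjusted p = 0.0415 to 0.0457). Neogenin (Neo1), a netrin receptor, had 33.1, 41.2 and 30.3 CPM in the arterial, 39.5, 39.4 and 42.96 CPM in the venous and 59.8, 71.9 and 63.05 CPM in the endocardial libraries and fell in coronary libraries (-0.79 ± 0.17, adjusted p = 0.00396). Dcc, the axonal netrin receptor, had at most 2.13 CPM and was not tested. Itga1, an integrin chain of collagen receptors that Sema7a also binds, averaged 156 ± 10.8 CPM in arterial, 152 ± 11.03 CPM in venous and 60.7 ± 3.26 CPM in endocardial libraries (SD, n = 3 each), a rise in coronary libraries (1.34 ± 0.15, adjusted p = 5.96e-06).

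Below the plexins, 3 of the 22 listed signalling genes rose and 4 fell in coronary against endocardial libraries, where 7% of all genes rose and 6.91% fell. The same shares of all genes stand beside the smaller lists that follow. The rises were those of the Src-family kinase gene Fyn, at 242 ± 25.9 CPM in arterial, 241 ± 6.22 CPM in venous and 113 ± 6.397 CPM in endocardial libraries (SD, n = 3 each) (1.10 ± 0.14, adjusted p = 2.67e-05), of Arhgef12, which encodes LARG, an exchange factor bound by B plexins (0.56 ± 0.13, adjusted p = 0.00894), and of Crmp1, which encodes a collapsin response mediator of Sema3a signalling (1.92 ± 0.29, adjusted p = 0.000179). Mical2, of a family of redox enzymes that take actin apart below plexins, was among those that fell. It had 57.05, 94.6 and 85.6 CPM in arterial libraries, 119, 145 and 105 CPM in venous libraries and 214, 358 and 421 CPM in endocardial libraries, a log2 fold change of -1.75 ± 0.21, adjusted p = 2.87e-05. Below Robo receptors 4 of 10 genes rose, on the log2 scale the GTPase-activating genes Srgap1 (0.57) and Srgap2 (0.44) and the adaptor genes Nck1 (0.77) and Nck2 (0.84). The calls of Srgap1 and Srgap2 ended in 6 and 7 of the 9 fits that left out 1 library, and that of Nck2 without endocardial replicate 1 (adjusted p = 0.0564). Of 5 genes below Dcc and Unc5 receptors, Dapk1 fell, and 3 rose, the adaptor gene Appl1 (0.63, a call that ended without endocardial replicate 2, adjusted p = 0.063), the Rac activator gene Dock1 (0.94) and the focal adhesion kinase gene Ptk2 (0.61).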

How the data were processed

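Poly(A) RNA of each sorted population was amplified from 1 ng and sequenced as single reads, per the labels' protocols. The deposited table holds expected counts per gene made by RSEM 1.2.3 on GRCm38, after CASAVA 1.8.2 and cutadapt 1.3, per the submitters' processing notes. No source used here names the aligner or the use of strand. Of values above 0, 45.5% were not whole, and all were rounded before testing. The test was edgeR 4.0.16 (quasi-likelihood, robust, TMM, filterByExpr with a minimum count of 10) in R 4.3.3 on all 9 libraries, with Benjamini-Hochberg adjustment over 17103 genes. A run on simulated counts, drawn without batches, covered only the arterial with venous and the coronary with endocardial comparison. Its outcome is not given here. The SE is the log2 fold change divided by the root of F. Differences per batch are in log2(CPM + 1). Alternatives were DESeq2 1.42.0, its scaling in edgeR (RLE), no count filter, only the libraries compared, a replicate block and leaving out each library. Replicate numbers equal the labelled batch and so pair the populations; deviations from group means correlated at 0.083 to 0.17 between libraries numbered 1, 0.036 to 0.15 for number 2 and -0.09 to 0.092 for number 3. Coordinates and merged exon lengths come from GENCODE vM21, and promoters from RefSeq. Members given in every library were those called in any comparison or the highest of their role in mean CPM. Ntn1 was added after its values were seen. Partners were those with the smallest p, up to 6 per comparison, with Nrp1, Nrp2, Neo1 and Dcc. Members and lists were chosen with earlier results of these data known. Depth, 12750553 to 19474419 counts a library, leaves members of a few counts, such as Slit3 in arterial libraries, imprecise.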

Additional observations from a re-analysis of the deposited data

How the results depend on the processing

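Across the other settings, 1533 of the values for single genes stayed on their side of the threshold, 46 gained and 71 lost a call, and none of the called ones reversed. For arterial against venous libraries, 5 members were called, 9 without the filter on low counts, and 2 to 7 when 1 library was left out; partners numbered 1, 3 without that filter, 2 when only the compared libraries were fitted, and 1 to 2 with 1 library left out (2 without endocardial replicate 1). Over all genes the count was 183, 356 by DESeq2, 439 without the filter and 120 to 225 with 1 library left out. For venous against endocardial libraries, 15 partners were called and 8 to 16 with 1 library left out, with 8 or 9 without venous or endocardial replicate 2 or 3. There the count over all genes was 1753, and 1130 to 1871 with 1 library left out. With the replicate block the members called numbered 5 for arterial minus venous, 20 for coronary minus endocardial, 19 for arterial minus endocardial and 13 for venous minus endocardial libraries; beyond the genes for which the block is given above, it changed no other call of a described gene. The cause of these changes was not tested. With 3 libraries a group and a common coefficient of variation of 0.639, differences of scattered or low genes may be missed.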

Other observations

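Ntng1, a partner chosen after its values were seen, encodes netrin-G1, a netrin held in the membrane by a GPI anchor. It had 10.2, 5.99 and 7.5 CPM in arterial libraries, 0.71, 0.803 and 0.717 CPM in venous libraries and 2.75, 0.0721 and 0 CPM in endocardial libraries. Every arterial library lay above every other one, yet the difference of arterial from venous libraries missed the threshold by edgeR (log2 fold change 3.39 ± 1.25, adjusted p = 0.407), and so did that of arterial from endocardial libraries (3.07 ± 1.23, adjusted p = 0.145). Dpysl4, a second gene chosen in this way, encodes a collapsin response mediator. It had 1.55, 1.38 and 5 CPM in arterial, 0.592, 0.309 and 1.23 CPM in venous and 0.0764, 0 and 0.0679 CPM in endocardial libraries. The 3 populations were separate in that order, but its arterial counts were at most 68.11 reads, and no difference passed the threshold (adjusted p = 0.0576 for arterial minus endocardial libraries by edgeR).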
